A study of Arabidopsis thaliana with 12 samples.

Results

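The transcripts described here are those that abscisic acid (ABA) raised in Arabidopsis suspension cells, but by at most 2-fold, if at all, when dimethylthiourea (DMTU) was also present. They were chosen on group means of log2 probe set values: ABA minus control of at least 2, ABA+DMTU minus DMTU of at most 1, and no gene symbol other than a locus identifier. Of 22746 probe sets on the array, 90 met this rule. The annotation gave 48 of them 1 locus and 1 of them several loci, and 41 are unnamed here. The first limit alone was met by 619 probe sets (2.72%), and 107 of these (17.3%) met both. Of the 107, 9 probe sets with a symbol and 8 listed loci were set aside by the rule.

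All cells were T87, an Arabidopsis line of the Columbia background grown as a suspension, taken at about 120 h of culture after 20 h of treatment. The ABA+DMTU group received 50 µM ABA and 5 mM DMTU, the ABA group 50 µM ABA, the DMTU group 5 mM DMTU with the ethanol solvent, and the control group ethanol. Each group had 3 arrays. DMTU is a chemical that removes hydrogen peroxide. The cells are 1 line in culture, without the tissues of a plant, and a single time and dose were sampled.

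ABA is the plant hormone of water deficit and seed maturation. Its receptors inhibit type 2C protein phosphatases, which frees SnRK2 kinases to activate transcription factors, and many target genes encode proteins that protect dehydrating cells. NADPH oxidases (RBOH proteins) at the plasma membrane make superoxide that is converted to hydrogen peroxide, a second messenger in several ABA responses. In bulk cultures such as these, fewer cells of a kind and less RNA per cell cannot be told apart.

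Some arrays stood apart, and 1 of them bears on most of the values below. The SD of the differences between ABA replicate 1 and ABA replicates 2 and 3 was 0.505 and 0.465 over all probe sets, against 0.174 between replicates 2 and 3. Control replicate 1 had 0.565 and 0.550, against 0.167, and ABA+DMTU replicate 1 had 0.406 and 0.400, against 0.244. The 3' minus 5' log2 difference of the ubiquitin control probe sets, a sign of RNA integrity and labelling, was 1.03 to 1.17 in the ABA+DMTU arrays, 0.64 to 0.72 in the ABA arrays, 1.28 to 1.41 in the DMTU arrays and 0.88 to 1.01 in the control arrays. It was thus highest in DMTU arrays and lowest in ABA arrays, as was the mean of the actin control probe sets (3.58 and 2.65). The GAPDH control probe sets had another order, with the lowest mean in DMTU arrays (0.41) and the highest in ABA+DMTU arrays (0.64, SD 0.45). The bioB spike-in, which is added at hybridisation, averaged 8.20 ± 0.39 in ABA+DMTU, 7.56 ± 0.39 in ABA, 8.19 ± 0.06 in DMTU and 7.31 ± 0.28 in control arrays (log2, SD, n = 3), and so was higher in both groups with DMTU. The part of either in the results was not tested. The labels name no batch, but the accession numbers of the 6 samples with DMTU form a later block of their own. Any batch shared by the 6 arrays with DMTU cannot be told apart from DMTU itself.

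The rule fixed the general shape of the profile, which is given as a description. Over the 90 members, ABA minus control ranged from 2.00 to 5.68 with a median of 2.70, beside a median of 0.01 over all probe sets. ABA+DMTU minus DMTU ranged from -0.41 to 0.98 with a median of 0.41, so the median member kept 14.7% of its log2 rise when DMTU was present. It was 0.5 or more in 35 members and below 0 in 8. The interaction, which is the ABA difference with DMTU minus that without it, had a median of -2.37 and lay between -5.27 and -1.23. Close to the limits the choice was arbitrary: AT3G54940 (2.00) and 2 unnamed probe sets (2.03 and 2.04) were just inside the limit on ABA minus control, with AT4G33740 and 2 unnamed probe sets just outside (1.98 to 2.00). AT2G32430 (0.98), an unnamed probe set (0.97) and AT1G19230 (0.93) were just inside the limit on ABA+DMTU minus DMTU, and AT4G28890, AT1G27461 and AT4G11350 just outside (1.01 to 1.03).

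**Figure D1:**
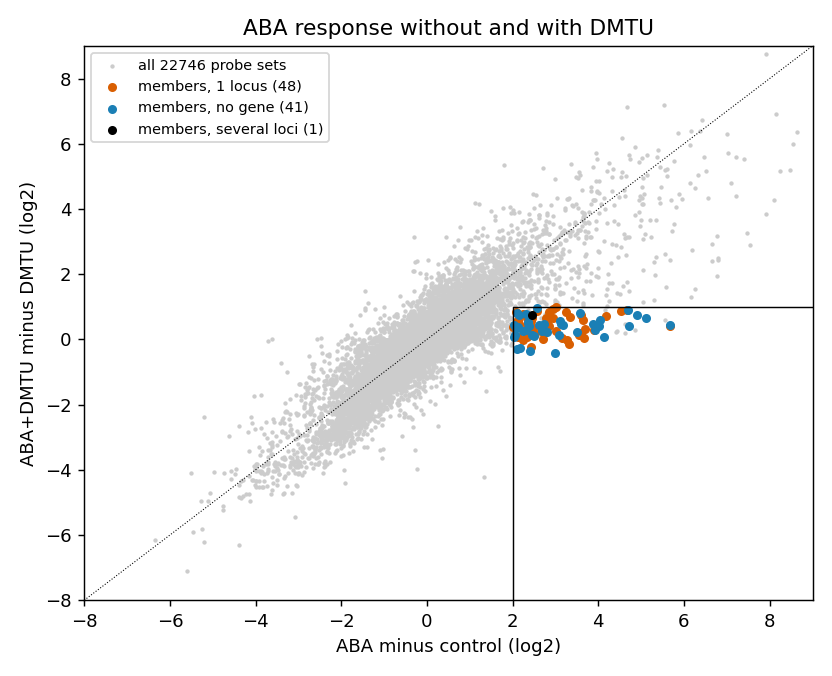
Each point is a probe set, with ABA minus control on the horizontal axis and ABA+DMTU minus DMTU on the vertical axis (both log2 differences of group means, 3 arrays a group). Members lie in the lower right box set by the limits 2 and 1, and the dotted line marks equal differences.

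Outside the ABA group, the median member lay below the median of all probe sets. The members' median level was 4.44 in ABA+DMTU, 3.97 in DMTU and 4.06 in control, beside 5.84, 6.01 and 6.02 over all probe sets. In ABA it was 7.29, beside 5.85. The arrays' lower quartiles were 3.84 to 3.98 and their medians 5.78 to 6.05. On all 3 arrays of a group, 10 of 90 members were at or below the array's lower quartile in ABA+DMTU, 0 in ABA, 34 in DMTU and 24 in control. Above the array's median on all 3 arrays were 10 members in ABA+DMTU, 62 in ABA, 8 in DMTU and 6 in control. Neither count was made over all probe sets, so nothing is read from them. Every ABA array lay above all 9 other arrays for 85 of the 90 members, where 6.82% of all probe sets did so; this pattern follows largely from the rule. In 47 members the lowest ABA+DMTU array was not above the highest DMTU array. The limit on ABA+DMTU minus DMTU favours such overlap, and it was not counted over all probe sets, so nothing is read from it.

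**Figure D2:**
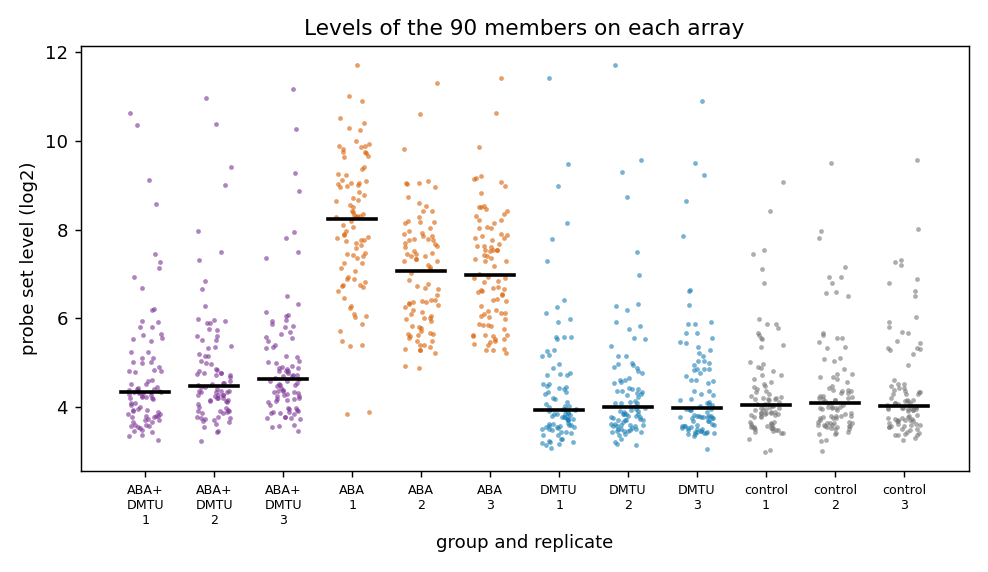
Log2 levels of the 90 members on each of the 12 arrays, grouped by treatment and replicate, with a bar at the median. The medians are 4.34 to 4.64 on the ABA+DMTU arrays, 8.24, 7.07 and 6.97 on ABA replicates 1, 2 and 3, 3.93 to 4.002 on the DMTU arrays and 4.03 to 4.09 on the control arrays.

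ABA replicate 1 added to the height of many of these profiles. It was the highest ABA array in 68 of 90 members and at least 1 above the mean of the other 2 ABA arrays in 46 (51.1%), against 22.5% of the 512 probe sets with ABA minus control of at least 2 that did not meet the limit with DMTU. The median excess of replicate 1 was 1.06 in the members and 0.34 in those 512 probe sets. The members' median SD over the ABA arrays was 0.73, against 0.15 over all probe sets, while in control arrays it was 0.16 for both. Without ABA replicate 1 all 90 members kept an ABA minus control of at least 1, from 1.39 to 5.41, and 69 still met both limits. The median was then 2.35, beside 2.70 with all arrays. The 21 that did not include 10 with a locus: AT5G61890, AT5G54030, AT3G62730, AT3G57800, AT4G18425, AT2G47200, AT1G02660, AT1G20180, AT2G21430 and AT2G19320. Without control replicate 1, 9 members no longer met the limits, of which 1, AT3G54940, had a locus.

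**Figure D3:**
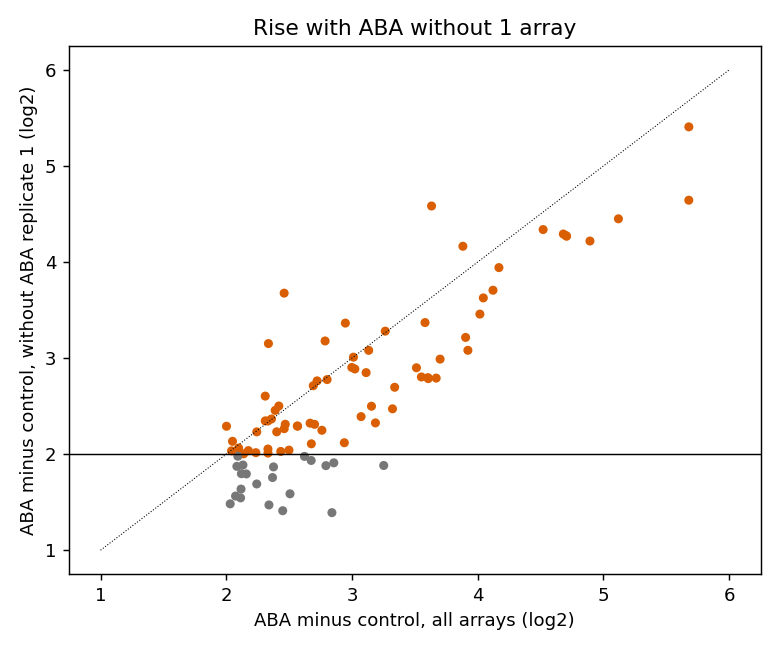
Each point is a member, with ABA minus control from all arrays on the horizontal axis and without ABA replicate 1 on the vertical axis (log2). The dotted line marks equal values; 69 members lie above the solid line at 2 and 21 below it.

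The members with a locus are described by the kind of protein they encode. The gene table used here gives no product names, so families are stated from general knowledge of these loci, for 33 of the 48; the groups were drawn up after the members were known. A group of 9 encodes proteins of the cell wall and the secretory route. AT2G22510, of a hydroxyproline-rich glycoprotein family, read 3.37, 3.76 and 3.98 in ABA+DMTU, 11.02, 7.79 and 8.05 in ABA, 3.17, 3.28 and 3.44 in DMTU, and 3.28, 3.25 and 3.30 in control arrays. Its ABA arrays stood clear of all others, by 5.68 over control on average and by 4.64 without ABA replicate 1. The difference with DMTU present was 0.41.

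AT2G22620, of the rhamnogalacturonate lyases that cut pectin backbones, read 3.95, 4.41 and 4.12 in ABA+DMTU, 8.55, 7.87 and 7.87 in ABA, 3.53, 3.40 and 3.42 in DMTU, and 3.86, 3.86 and 4.07 in control arrays. Its ABA arrays stood clear of the other 9, and replicate 1 was the highest of them. AT3G62820, of the family that inhibits pectin methylesterases, went the other way in replicate 1: it read 3.54, 4.20 and 4.76 in ABA+DMTU, 5.39, 8.42 and 8.06 in ABA, 3.62, 3.56 and 3.53 in DMTU, and 3.54, 3.71 and 3.71 in control arrays. ABA replicate 1 was lowest here, and ABA minus control was 3.63, or 4.58 without it. AT5G20860, of the pectin methylesterase family, read 4.35, 4.37 and 4.55 in ABA+DMTU, 6.88, 6.66 and 6.94 in ABA, 3.83, 3.92 and 3.93 in DMTU, and 3.94, 4.19 and 3.94 in control arrays, with little spread among its ABA arrays.

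AT5G47635, of a pollen allergen and extensin family, read 3.47, 3.94 and 3.89 in ABA+DMTU, 9.12, 6.30 and 6.66 in ABA, 3.65, 3.74 and 3.81 in DMTU, and 3.79, 3.65 and 3.63 in control arrays. With DMTU its ABA difference was 0.03, the groups overlapping. The ABA difference of the hydroxyproline-rich AT5G09480 was -0.15 with DMTU and 3.32 without it, and that of AT4G38080 was 0.18 with DMTU and 2.50 without it. The galactosyltransferase-family AT2G32430 had 0.98 with DMTU and 3.02 without it. AT1G72230, of the copper-binding cupredoxins, had 0.40 with DMTU and 2.69 without it. It lies next to another member, AT1G72240, in the order of protein-coding genes; no other pair of members with a locus lay within 3 places. All 9 members of this group still had an ABA minus control of at least 2 without ABA replicate 1, as had 69 of the 90 members. The remaining arrays also entered the rule, so this is a description.

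Dehydration-protective proteins of the late embryogenesis abundant (LEA) family gave 2 members. AT3G53040 read 5.10, 4.74 and 4.28 in ABA+DMTU, 8.97, 6.39 and 6.63 in ABA, 3.96, 3.89 and 4.01 in DMTU, and 3.66, 3.81 and 3.72 in control arrays. The groups did not overlap with DMTU, where the ABA difference was 0.75, against 3.61 without DMTU (2.79 without ABA replicate 1). AT4G21020 read 3.35, 3.67 and 3.77 in ABA+DMTU, 6.62, 5.40 and 5.76 in ABA, 3.21, 3.44 and 3.40 in DMTU, and 2.99, 3.41 and 3.38 in control arrays. Of the 52 listed LEA genes, 36 had a named probe set, and 15 of those had an ABA minus control of at least 2. Of these 15, 5 met both limits: the 2 members, and AT3G15670, LEA18 and AtLEA4-1, which were set aside by the rule. The others kept a larger rise with DMTU; AT4G36600, for example, had 2.38 with DMTU and 5.30 without it, and COR15A, which protects chloroplasts during freezing, had 5.43 with DMTU and 4.96 without it.

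Regulatory and signalling proteins gave 9 members. AT1G19230, of the NADPH oxidase family that produces reactive oxygen, read 4.10, 5.39 and 5.05 in ABA+DMTU, 8.32, 5.60 and 6.11 in ABA, 4.06, 3.91 and 3.78 in DMTU, and 3.47, 3.76 and 3.98 in control arrays. Its ABA difference was 0.93 with DMTU and 2.94 without it, with an ABA SD of 1.44. Without ABA replicate 1, ABA minus control was 2.12. Its ABA+DMTU replicate 2 came close to the lowest ABA array without overlapping it, and ABA+DMTU replicate 1 lay near the DMTU arrays. The other NADPH oxidase genes with a named probe set, AT4G25090 and AT4G11230, had ABA minus control of -0.04 and -0.47.

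AT5G61890, an ERF-type transcription factor, was also expressed without ABA: it read 7.45, 7.96 and 7.96 in ABA+DMTU, 9.89, 9.10 and 9.21 in ABA, 7.78, 7.50 and 7.86 in DMTU, and 7.45, 7.16 and 7.19 in control arrays. The ABA difference was 0.07 with DMTU and 2.13 without it. AT3G57800, a bHLH-type transcription factor, read 4.91, 5.95 and 5.97 in ABA+DMTU, 6.74, 6.09 and 6.13 in ABA, 4.78, 4.61 and 4.87 in DMTU, and 4.73, 3.998 and 3.98 in control arrays. ABA+DMTU replicates 2 and 3 lay just under the lower ABA arrays, and it kept 41.0% of its log2 rise, more than any other member.

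AT3G05640, of the type 2C protein phosphatases, read 6.21, 5.90 and 5.57 in ABA+DMTU, 7.74, 7.93 and 7.63 in ABA, 5.30, 5.39 and 5.67 in DMTU, and 5.63, 5.35 and 5.32 in control arrays. Its ABA arrays were alike and above all others. AT2G37440, of the inositol polyphosphate 5-phosphatases, had an ABA difference of 0.64 with DMTU and 2.95 without it, and was lowest in ABA replicate 1 among the ABA arrays (6.04, 7.21 and 7.36). The remaining 4 were AT5G17600 of the RING-type ubiquitin ligases (0.72 with DMTU and 2.33 without it), AT4G15120 with a VQ motif (-0.24 with and 2.43 without), AT3G56230 with a BTB/POZ domain (0.66 with and 2.46 without) and AT3G11930 of the universal stress proteins (0.64 with and 2.79 without).

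Proteases gave 5 members. AT2G03200, an aspartyl protease family gene, read 4.23, 4.21 and 4.32 in ABA+DMTU, 9.36, 6.87 and 7.00 in ABA, 3.996, 4.09 and 4.06 in DMTU, and 4.03, 4.22 and 4.16 in control arrays. AT5G24820 of the same family had an ABA difference of 0.04 with DMTU and 3.16 without it. The matrix metalloproteinase AT4G16640 had 0.24 with DMTU and 2.76 without it. The papain-type AT2G21430 had -0.02 with DMTU and 2.24 without it (1.69 without ABA replicate 1), and AT3G54940 of the same type had 0.38 with and 2.00 without.

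Lipid-related families gave 5 members. AT1G05450, of the lipid transfer proteins, read 4.04, 3.72 and 3.84 in ABA+DMTU, 8.68, 6.38 and 6.70 in ABA, 3.51, 3.58 and 3.51 in DMTU, and 3.51, 3.54 and 3.61 in control arrays, an ABA difference of 0.33 with DMTU and 3.70 without it. AT1G21540, of the AMP-dependent ligases that activate acyl groups, had alike ABA arrays (6.10, 6.26 and 6.45) and an ABA difference of 0.57 with DMTU and 2.42 without it. AT1G02660, a plastid lipase, had 0.56 with DMTU and 2.11 without it (1.54 without ABA replicate 1). AT4G23670 was low in ABA replicate 1, at 3.84 against 6.73 and 5.86 in replicates 2 and 3, so that its ABA arrays overlapped its ABA+DMTU arrays at 4.21, 3.62 and 3.75. The acyltransferase-family AT5G07080 had 0.08 with DMTU and 2.33 without it.

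Membrane proteins gave 3 members. AT3G03620, of the MATE efflux carriers, read 3.84, 4.53 and 4.69 in ABA+DMTU, 8.29, 7.68 and 7.81 in ABA, 3.36, 3.59 and 3.46 in DMTU, and 3.43, 3.40 and 3.39 in control arrays. Its ABA minus control of 4.52 stayed at 4.34 without ABA replicate 1, and ABA still gave 0.88 with DMTU. AT4G18425, of a DUF679 family, depended most on 1 array: it read 5.64, 3.88 and 3.77 in ABA+DMTU, 9.85, 5.39 and 5.62 in ABA, 3.58, 3.61 and 3.57 in DMTU, and 4.56, 3.80 and 3.98 in control arrays. Its ABA minus control was 2.84, or 1.39 without ABA replicate 1, and ABA+DMTU replicate 1 overlapped the lower ABA arrays.

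The 15 members with a locus and no family stated here had ABA differences of 0.02 to 0.91 with DMTU and 2.12 to 4.68 without it. AT1G24600 led them, with 4.17, 4.69 and 5.36 in ABA+DMTU, 9.23, 7.97 and 8.15 in ABA, 3.74, 3.96 and 3.80 in DMTU, and 4.05, 3.57 and 3.68 in control arrays. The ABA difference of AT1G68500 was 0.30 with DMTU and 3.90 without it, and that of AT1G56320 was 0.13 with and 3.55 without. AT2G05910 had 0.68 with DMTU and 3.34 without it, and AT1G23330 had 0.86 with and 2.57 without. AT5G42290 had the least spread among its ABA arrays in this set, reading 3.94, 3.92 and 4.33 in ABA+DMTU, 6.71, 6.79 and 6.63 in ABA, 3.93, 3.75 and 3.77 in DMTU, and 3.55, 3.85 and 3.69 in control arrays. Over all 90 members, 21 had an ABA SD under 0.3, with ABA minus control of 2.04 to 3.27, and 31 had an SD of 1 or more. The 41 unnamed members had median ABA differences of 0.41 with DMTU and 2.68 without it, beside 0.43 with and 2.77 without for those with 1 locus.

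**Figure D4:**
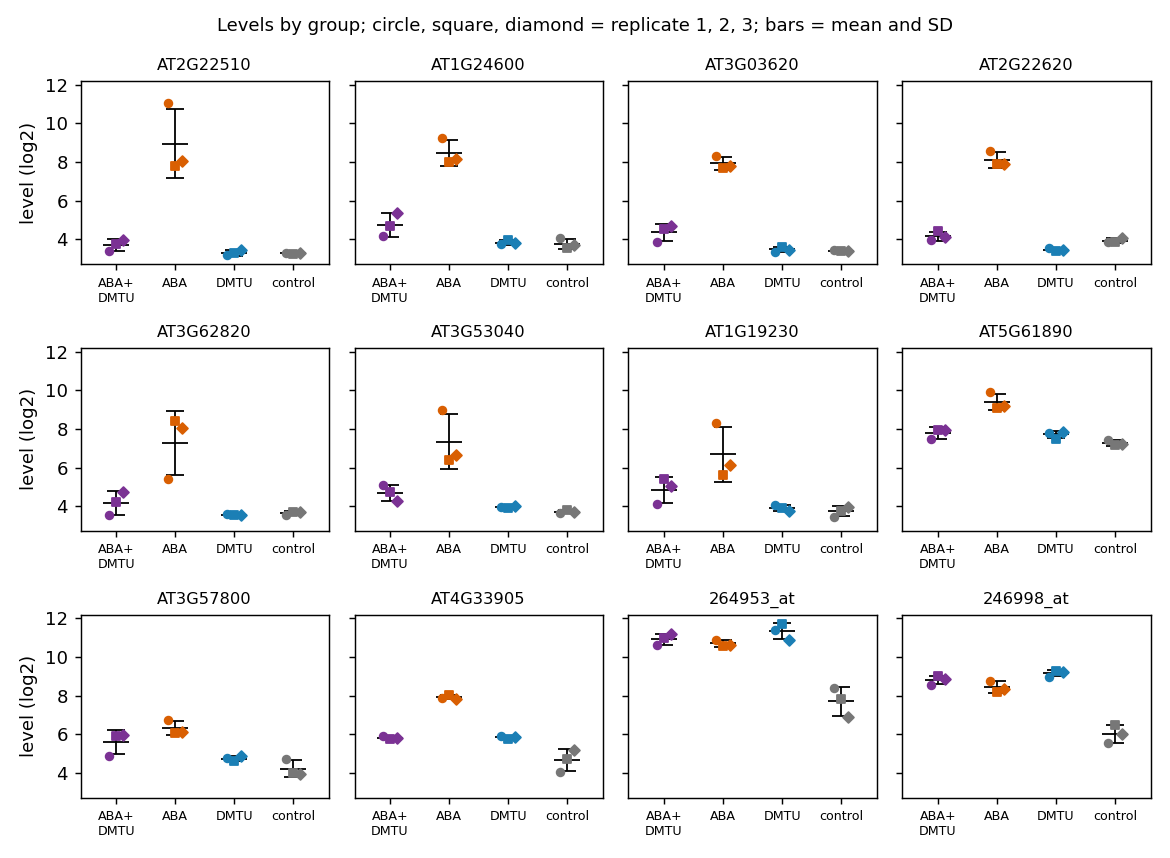
Log2 levels of 10 members with a locus and 2 unnamed probe sets on all 12 arrays, with the mean and SD of 3 arrays per group. In 10 panels the ABA mean is the highest of the 4; in the panels of 264953_at and 246998_at the DMTU mean is the highest.

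What DMTU did without ABA was not part of the limits, although its groups enter both. DMTU minus control had a median of -0.04 over the members and 0.03 over all probe sets, and 75 of the 90 lay between -0.5 and 0.5. It reached 1 or more in 3 members, where 2.68% of all probe sets did, and -1 or less in 1, where 3.28% did. Most members thus had DMTU levels close to control levels, and an ABA+DMTU mean less than 1 above control in 82 of 90. ABA+DMTU minus control had a median of 0.41 over the members and 0.05 over all probe sets. The limit on ABA+DMTU minus DMTU favours small values of it. The shares of all probe sets between -0.5 and 0.5, and less than 1 above control, were not counted. Closeness to control is therefore a description of the members, and not a trait shown to set them apart.

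A few members met the limits in another way, through a high level in DMTU arrays. The unnamed probe set 264953_at read 10.62, 10.97 and 11.18 in ABA+DMTU, 10.90, 10.60 and 10.63 in ABA, 11.42, 11.71 and 10.89 in DMTU, and 8.42, 7.81 and 6.89 in control arrays. The unnamed 246998_at read 8.58, 9.01 and 8.87 in ABA+DMTU, 8.77, 8.18 and 8.36 in ABA, 8.99, 9.29 and 9.24 in DMTU, and 5.57, 6.50 and 6.03 in control arrays. In both, DMTU alone was at or above the level with ABA alone, and the label of a blocked induction goes against their values: the DMTU mean was 3.63 and 3.14 above control. AT4G33905, of the Mpv17/PMP22 family of organelle membrane proteins, read 5.93, 5.75 and 5.82 in ABA+DMTU, 7.91, 8.05 and 7.86 in ABA, 5.92, 5.76 and 5.87 in DMTU, and 4.07, 4.76 and 5.19 in control arrays. It lay between: DMTU exceeded control by 1.18, and the ABA difference was -0.02 with DMTU and 3.27 without it.

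**Figure D5:**
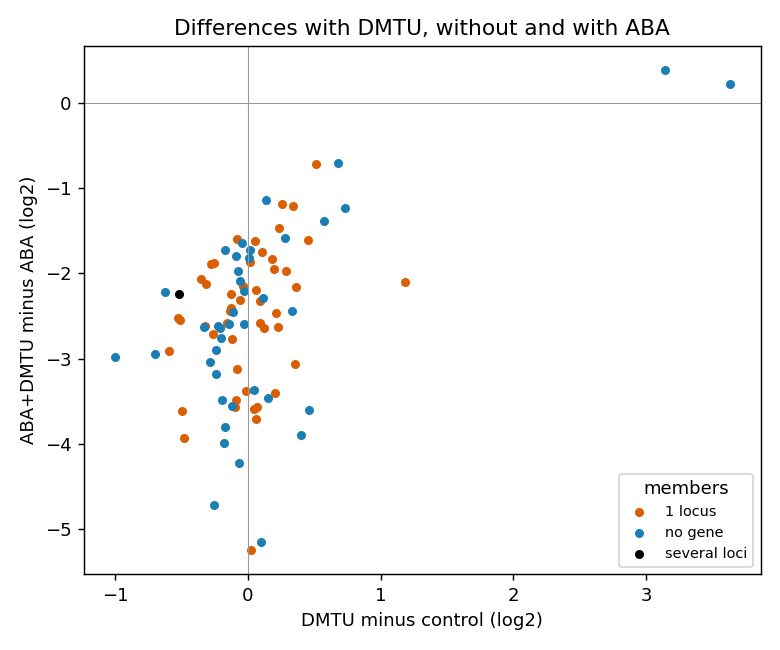
Each point is a member, with DMTU minus control on the horizontal axis and ABA+DMTU minus ABA on the vertical axis (log2 differences of group means). Most members lie near 0 on the horizontal axis and between -5.25 and 0 on the vertical axis, and 2 unnamed probe sets lie at 3.63 and 3.14 with positive values on the vertical axis.

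The average DMTU effect is the mean of both groups with DMTU minus the mean of both groups without it. For these members it is a description, because the rule used the same 4 group means. It equals DMTU minus control plus 0.5 times the interaction, which the limits hold at -1 or less, and DMTU minus control was near 0 in most members. The error was also unequal between groups, with a median SD over the members of 0.28 in ABA+DMTU, 0.73 in ABA, 0.13 in DMTU and 0.16 in control, so that a choice of high ABA means lowers the effect. The median effect was -1.28 over the members and 0.04 over all probe sets. At an adjusted p under 0.05 limma had 76 of 90 members lower and 2 higher, where it had 12.9% of all probe sets lower and 15.4% higher. At least 2-fold lower were 59 members, where 2.49% of all probe sets were. These counts are largely fixed by the rule, and nothing is read from the gap to the background.

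The size of the effect varied between members, and the values that follow are examples, not a complete ranking. It was -2.61 ± 0.45 (SE) for AT2G22510, -2.21 ± 0.13 for AT2G22620, -2.06 ± 0.35 for AT5G24820 and -1.83 ± 0.37 for AT5G09480. AT1G24600 had -1.82 ± 0.24 and AT3G03620 -1.75 ± 0.15. Smaller effects included -0.46 ± 0.15 for AT4G33905, and -0.83 ± 0.40 for AT1G19230 and -0.44 ± 0.28 for AT1G02660, which were not called. AT3G57800, also not called, had -0.10 ± 0.21, and its sign turned under 5 alternatives. The positive values were 1.92 ± 0.24 for 264953_at and 1.76 ± 0.16 for 246998_at, the probe sets with high DMTU arrays.

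The lists of related genes were not chosen by the limits, but some of their genes met them. Among the 36 measured LEA family genes, limma called 10 lower and 4 higher for the average DMTU effect, with a median of -0.0086. Over all probe sets it called 12.9% lower and 15.4% higher. Of the 36, 5 met both limits, 2 of them members. All 5 were among the 10 called lower, which the limits largely fix. Of 5 measured ABA marker genes, 1 was lower (LEA4-5, -0.63 ± 0.18) and 2 were higher (LTI30, 2.28 ± 0.35, and COR15B, 0.72 ± 0.15). Limma called 0 of 3 measured genes of hydrogen peroxide removal and oxidative stress, 0 of 1 suberin gene and 0 of 1 guard cell gene, and likewise 0 of each at an unadjusted p under 0.05. The embryo and xylem lists had 0 genes with a named probe set, which is what measured means here. Their genes may be among the unnamed probe sets.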

How the data were processed

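The authors deposited log2 probe set values of 12 single-colour Affymetrix arrays. RNA was labelled by in vitro transcription from the 3' end, per the labels' protocols. RMA and limma are named without role or version, per the submitters' processing notes. No further normalization was applied. Precision is limited by having 3 arrays a group. The 64 control probe sets were left out, which left 22746. The platform's annotation named 1 gene for 13513 probe sets, several for 503 and none for 8730. Sample titles gave each array its group and number. Whether replicates were separate cultures is not stated, so a p-value here reflects only how much these arrays differ, and that may be technical.

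Limma 3.58.1 in R 4.3.3 was fitted to all probe sets and arrays with a mean per group (8 residual degrees of freedom), with moderated two-sided tests and Benjamini-Hochberg adjustment over all probe sets, and was checked on simulated data. In the simulated data each probe set had the same SD in all groups, and no array stood apart. The check therefore does not cover the unequal spread of these arrays. Errors are SEs of the limma fit or SDs of 3 arrays. The contrasts behind the membership rule and the interaction were given with no test, and the calls for the average DMTU effect of members as a description. Deviations from the group means of same-numbered ABA and control arrays correlated at 0.52, 0.42 and 0.39 for numbers 1, 2 and 3. No other pair of groups had all 3 correlations above 0.1. Deviations within a group are not independent, and replicate 1 stood apart in both the ABA and control groups. The 3 values are therefore not separate signs of pairing, and whether the numbers pair the samples was not settled. Tables were made with Python 3.11.15 and pandas 2.3.3.

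The members and lists were chosen with earlier results of these data known. Named members, 31 of the 48 with 1 locus, were the largest ABA differences and levels, the largest average effects, DMTU differences and interactions, those at the limits, list members and some protein families, for which general knowledge stood in for product names. Others are named to complete a group, and 2 unnamed probe sets by ID; these were chosen after their values were seen. Alternatives were centred arrays, array weights, no dim probe sets, arrays left out, a replicate block and other limits. Sequences were not used here.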

Additional observations from a re-analysis of the deposited data

How the results depend on the processing

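The number of members that limma had lower for the average DMTU effect, which the rule largely fixes, was 76, and it was 76 with arrays centred on their medians, 82 with array quality weights, 78 without dim probe sets and 66 to 77 with 1 array left out; 2 were called higher each time. With the replicate number as a block it was 73. Whether the numbers pair samples was not settled, and 5 of 12 arrays correlated best with an array of their own number over all 4 groups. The rule found 90 members, 96 after centring, 74 to 112 with 1 array left out, 60 with both limits moved inward by 0.25 and 160 with both moved outward, which by construction admits more. Without both ABA replicate 1 and control replicate 1 it found 74, of which 67 were among the 90. The median DMTU minus control difference ranged from -0.065 to -0.00059 and the median interaction from -2.65 to -2.06 with 1 array left out. For AT3G57800 the average DMTU effect changed sign to 0.18 with array weights, 0.13 without both arrays numbered 1, and 0.0063 to 0.075 without 1 of ABA, ABA+DMTU or control replicate 1 (from -0.19 to 0.075 over all arrays left out in turn); the cause was not tested. Of 527 values for the 31 named members under the alternatives, 495 kept direction and call, 26 lost the call, 1 gained it and those 5 changed sign. The losses were in AT4G33905, AT3G53040, AT1G72240 and AT5G54030. A kept direction is largely fixed by the rule, so the tally is a description. Members not called with all arrays, such as AT1G02660, were counted as kept where they stayed uncalled.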

Other observations

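With the limits exchanged, 43 of the 587 probe sets with ABA+DMTU minus DMTU of at least 2 had an ABA minus control of at most 1 (7.33%), beside 107 of the 619 probe sets in the original direction (17.3%). These counts come from all 12 arrays and were not tested. Replicate 1 minus the mean of replicates 2 and 3 had a median of -0.19 over the members in ABA+DMTU arrays, against 1.06 in ABA arrays, and across the 90 members the 2 values correlated at r = 0.12, as a description of arrays that share no sample. In 5 members ABA replicate 1 was at least 1 below the other ABA arrays; 4 of them were AT3G62820, AT4G23670, AT3G11930 and AT2G37440, and the other was the probe set with several loci.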
